A study of Mus musculus with 36 samples.

Results

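The question addressed here is whether deleting the C-terminus of p53 was accompanied by the same expression differences in spleen and in liver. It was read from the 12 single-end RNA-seq libraries of spleen and liver, out of 36 samples in the series, chosen by their titles. The 4 groups hold 3 libraries each: mice with the p53 C-terminal deletion, called d24, spleen; wild-type (wt) spleen; d24 liver; and wt liver. All 12 are titled as X-ray samples. The alleles carried on the other chromosome, the strain and the age of the mice are not stated in the labels, and nothing says whether libraries of 1 group came from separate animals beyond their numbers.

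p53 is a transcription factor that is kept low by the ubiquitin ligase Mdm2 and is stabilised by DNA damage. It then binds paired half-sites near its target genes and switches on arrest genes such as Cdkn1a and cell death genes such as Bax. Its C-terminal tail is rich in lysines that carry ubiquitin and acetyl marks and binds DNA without regard to sequence. The mouse spleen is a lymphoid organ that also makes blood cells, and the liver makes blood cells before and shortly after birth, so both organs can hold granulocyte, megakaryocyte and B cell precursors. In whole-organ RNA, fewer cells of a type and less RNA per cell cannot be told apart.

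The labels contradict each other. The genotype is taken from the titles and column names, while the cell type field gives WT for all 12 samples, the d24 ones included. The treatment field also goes against the titles. It gives 2 Gy and 3 h for d24 spleen and wt liver, and control for wt spleen and d24 liver. Genotype and irradiation therefore cannot be told apart if that field is right. The deposited values, here called signal, are reads per gene divided by a library size that was scaled for composition. Cdkn1a, which encodes the cell cycle inhibitor p21, had a signal of 319, 416 and 384 in d24 spleens, against 5.46, 7.36 and 9.37 in wt spleens. It had 360, 364 and 108 in d24 livers, against 17.7, 34.4 and 147 in wt livers. In the separately normalised paired-end table, wt spleens averaged 157 ± 6.19 after X-rays and 4.98 ± 1.29 without them (SD, n = 3 each), and wt livers 117 ± 8.73 and 14.5 ± 2.47. The single-end wt spleens, titled as X-ray samples, thus stood near the untreated level of the other table. Of the wt livers, which the treatment field gives as irradiated, 1 and 2 stood nearer the untreated level and 3 above the mean after X-rays. The d24 livers, which it gives as controls, were at or near the level after X-rays or above it. Cdkn1a is itself a p53 target and the tables were normalised apart, so these values do not settle which label is right.

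Each library's column came to between 20481048 and 31646126 recovered reads, and 1 read was worth 0.02896 to 0.08278 signal. Xist, transcribed from the inactive X chromosome, was 546 to 702 in d24 spleens, against 0.925, 830 and 0.376 in wt spleens. It was 0, 737 and 704 in d24 livers, against 1.05, 581 and 0.302 in wt livers, so the spleen groups in particular were not matched for sex. wt spleen 3 also carried pancreatic transcripts: the summed signal of the pancreatic acinar list was 1200 there, against 14.7 to 18.1 in d24 spleens and 31 and 25.4 in the other wt spleens. The hepatocyte list summed to 492000 to 589000 in d24 livers, against 350000 to 515000 in wt livers, and to 222 to 331 in d24 spleens, against 166 to 227 in wt spleens, so each organ carried the markers of its label. The single-end wt libraries also stood apart from the paired-end wt libraries in several of the genes below, with values given there. Trp53 itself had 145, 214 and 236 in d24 spleens, against 107, 91.9 and 98.5 in wt spleens, and 42.2, 47.2 and 51 in d24 livers, against 54.6, 55.7 and 34.6 in wt livers. Neither organ's Trp53 difference passed the test (adjusted p = 0.0608 in spleen and 0.991 in liver), and a gene total does not show whether the deleted end is missing.

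Of 15077 genes tested with limma, the interaction, which is the d24 minus wt difference in spleen minus that in liver, called 62 (0.411%) at an adjusted p under 0.05. It was above 0 for 27 of them (0.179%) and below 0 for 35 (0.232%), and 1299 genes (8.62%) had an unadjusted p under 0.05. The same fit called 344 genes (2.28%) between d24 and wt spleens, 151 higher (1.00%) and 193 lower (1.28%). It called 213 (1.41%) between d24 and wt livers, 96 higher (0.637%) and 117 lower (0.776%). The average over both organs called 550 (3.65%). Combining the calls, 34 genes (0.226%) were spleen-bound, that is called by the interaction and in spleen but not in liver, 22 of them higher (0.146%) and 12 lower (0.0796%) in d24. The liver-bound genes, defined in the same way, numbered 21 (0.139%), 19 higher (0.126%) and 2 lower (0.0133%). Called in the same direction in both organs were 39 shared genes (0.259%), 6 higher (0.0398%) and 33 lower (0.219%), and 1 of them (0.00663%) also had a called interaction. Opposite calls fell on 1 gene (0.00663%), and 5 (0.0332%) were called by the interaction alone, 3 above 0 (0.0199%) and 2 below (0.0133%). The median over all tested genes was 0.03 for the interaction, -0.05 for the spleen difference and -0.08 for the liver difference on the log2(signal + 0.5) scale. d24 and wt values did not overlap in 2794 of the 15077 genes in spleen (18.5%) and in 2747 in liver (18.2%). In both organs, in the same direction, they did not overlap in 590 (3.91%). Groups without overlap, named below, are to be read beside these shares.

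**Figure D1:**
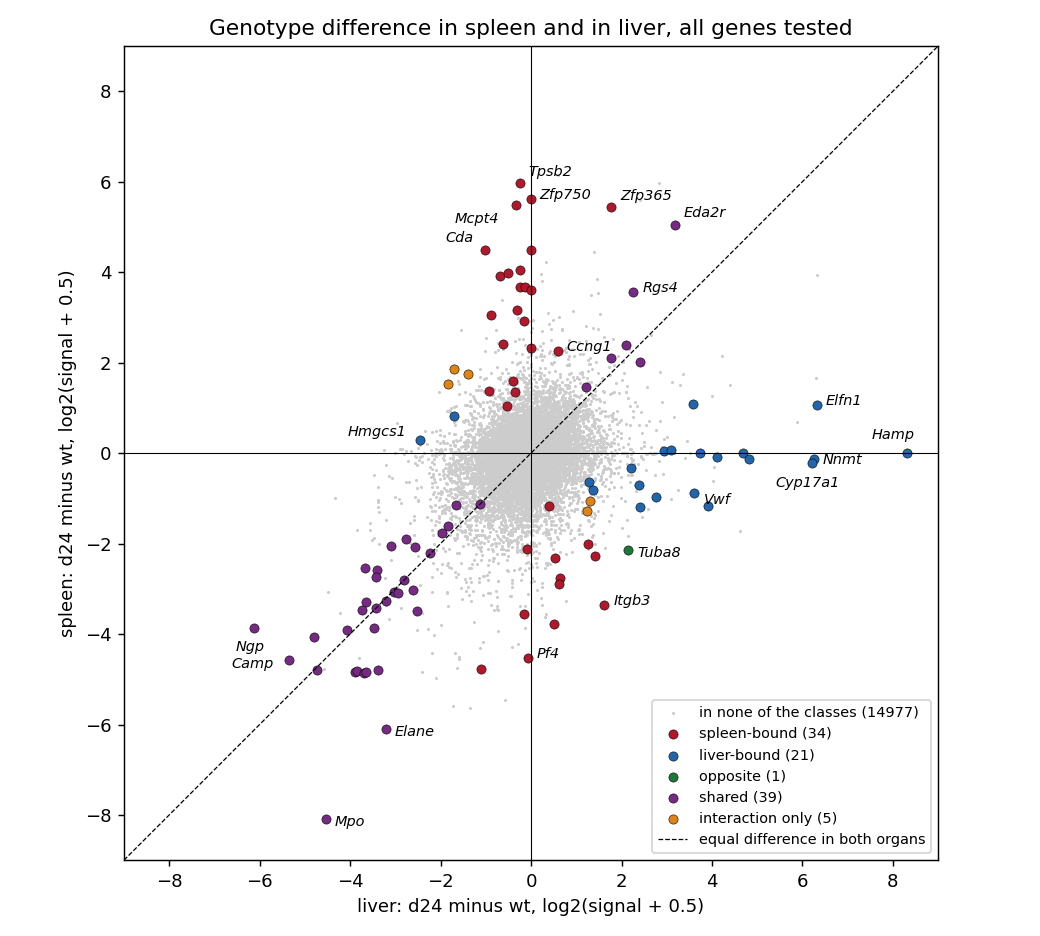
Each point is 1 gene, with its d24 minus wt difference in liver (x axis) and in spleen (y axis) on the log2(signal + 0.5) scale from the fit over 12 libraries. Colours give the classes, grey the genes in none of them, and the dashed line equal differences. The 34 spleen-bound genes lie along the vertical axis, the 21 liver-bound genes along the horizontal axis with Hamp farthest out, and 33 of the 39 shared genes in the lower left with Mpo at its end.

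The interaction calls rested on few libraries per group. Leaving out 1 library gave 12 calls (without wt liver 1) to 91 (without d24 liver 3), and the sign of every one of the 62 that could still be tested was kept in each of the 12 refits. The 62 were called in these same libraries, so kept signs, here and below, were largely fixed by that choice. Of the 54 called genes named here, 11 stayed called in all 12 refits: Avpr1a, Ccl24, Cda, Gmpr, Smoc2, Zfp750, F10, Itgb3 and Pf4 among the spleen-bound genes, and Hamp and Il17rb among the liver-bound ones. With Xist as a covariate the interaction called 31 genes, 30 of them among the 62. In the 7 libraries with high Xist, which leave 1 wt spleen and 1 wt liver, all 56 that could be tested kept their sign and none passed the adjusted threshold. Without wt spleen 3 and wt liver 3 together it called 30, of which 22 were among the 62. With genotype and replicate number as a block it called 100, of which 54 were among the 62. The d24 numbers did not pair between organs, as set out below, so the counts with this block are no check.

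For reference beside the values below, 4 promoter windows from RefSeq (GRCm38.p6) are given 5′ to 3′ on the gene's strand, each from 250 bases before to 50 after the transcript start. Cdkn1a (chr17:29090729-29091028, plus strand, an upstream start of the gene) and Ccng1 (chr11:40755237-40755536, minus strand) are shown because they are p53 targets, with capitals on the pair of p53 half-sites with the fewest mismatches. The pair was searched with the usual half-site consensus, which reads the same on both strands, with 0 to 13 bases between the 2 half-sites and at most 1 mismatch over the pair. Such a pair is in 1.09% of 32851 RefSeq promoter windows of this length. The marked Cdkn1a pair, from -73 to -42 with 12 bases between, has 0 mismatches, and a second pair that overlaps it, from -51 to -32 with 0 bases between and 1 mismatch, is not in capitals.
Cdkn1a: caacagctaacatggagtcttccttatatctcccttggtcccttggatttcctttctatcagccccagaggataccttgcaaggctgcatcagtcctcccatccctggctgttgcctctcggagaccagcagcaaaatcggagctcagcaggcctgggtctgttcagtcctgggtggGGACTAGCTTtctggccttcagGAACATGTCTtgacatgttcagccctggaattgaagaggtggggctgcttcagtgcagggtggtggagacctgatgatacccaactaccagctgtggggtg
Ccng1: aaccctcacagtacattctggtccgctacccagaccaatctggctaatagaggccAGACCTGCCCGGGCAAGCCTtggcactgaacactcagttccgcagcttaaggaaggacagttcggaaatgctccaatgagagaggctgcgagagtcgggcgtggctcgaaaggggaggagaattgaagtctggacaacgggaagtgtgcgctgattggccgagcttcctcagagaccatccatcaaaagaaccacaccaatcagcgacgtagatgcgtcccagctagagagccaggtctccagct

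Hamp (chr7:30943980-30944279, minus strand) and Hamp2 (chr7:30924132-30924431, minus strand) are near-identical neighbours and hold the farthest liver-bound gene. Capitals mark GGCGCC, the core of the BMP-responsive elements of hepcidin promoters, and TTCNNNGAA, the form of a STAT site, both read the same on either strand. GGCGCC is in 11.9% of the windows and TTCNNNGAA in 8.3%. The Hamp window holds 1 of each and the Hamp2 window holds only the second.
Hamp: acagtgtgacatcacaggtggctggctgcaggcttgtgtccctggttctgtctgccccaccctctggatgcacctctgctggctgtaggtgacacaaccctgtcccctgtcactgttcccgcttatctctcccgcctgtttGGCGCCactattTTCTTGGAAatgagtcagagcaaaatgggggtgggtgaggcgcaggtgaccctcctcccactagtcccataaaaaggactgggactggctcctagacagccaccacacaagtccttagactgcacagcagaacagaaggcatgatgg
Hamp2: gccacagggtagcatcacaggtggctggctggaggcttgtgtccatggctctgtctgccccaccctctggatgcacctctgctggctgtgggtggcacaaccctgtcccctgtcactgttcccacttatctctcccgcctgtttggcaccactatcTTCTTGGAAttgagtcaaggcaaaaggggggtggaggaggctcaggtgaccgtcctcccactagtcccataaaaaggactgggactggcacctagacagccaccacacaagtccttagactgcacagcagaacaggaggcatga

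Several p53 target genes rose in d24 spleen. Of the 17 arrest and feedback targets tested, 7 rose and none fell in d24 spleen, 1 rose in d24 liver, and the interaction called 3, with list medians of 1.10 in spleen, 0.61 in liver and 0.60 for the interaction. edgeR called none of the 17 interactions, and neither did limma with Xist as a covariate or without wt spleen 2, wt spleen 3 or wt liver 2. DESeq2 called 2 interactions above 0 and 1 below. DESeq2 called 8 of the 17 higher in spleen and 8 in liver, 5 of them in both, and without d24 liver 3 limma called 4 higher in liver. Ccng1, cyclin G1, which recruits a phosphatase to Mdm2, had 423, 563 and 459 in d24 spleens, against 105, 92 and 102 in wt spleens. It had 75, 113 and 97.3 in d24 livers, against 62.6, 57.1 and 67.6 in wt livers. Both pairs of groups were apart, and the spleen difference of 2.26 on the log2 scale was larger than the liver difference of 0.59 by 1.67 ± 0.31 (SE; adjusted p = 0.0342, limma). Zfp365, a zinc finger gene listed among p53 targets, rose by 5.43 in spleen and stood 1.77 higher in liver (interaction 3.66, adjusted p = 0.0462). Btg2, an antiproliferative target, went the other way: 450, 589 and 183 in d24 livers, against 78.9, 69.5 and 89.3 in wt livers, with 172, 177 and 231 in d24 spleens, against 251, 240 and 232 in wt spleens. Its interaction was -2.53 ± 0.47 (SE; adjusted p = 0.0342, limma). Of the 12 refits without 1 library, the interaction call was lost in 9 for Ccng1, 12 for Zfp365 and 11 for Btg2.

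Cdkn1a, the best known target, was called in spleen (5.59, adjusted p = 0.000144) and not in liver (2.41, adjusted p = 0.063), and its interaction of 3.17 ± 0.84 (SE) did not pass (adjusted p = 0.166). Phlda3, an Akt inhibitor, averaged 44.4 ± 14.4 in d24 spleens and 6.05 ± 1.7 in wt spleens, and 9.86 ± 2.66 in d24 livers and 3.53 ± 1.25 in wt livers (SD, n = 3 each). Zmat3, an RNA-binding zinc finger protein, averaged 44.6 ± 14.9 in d24 spleens and 6.03 ± 0.22 in wt spleens, and 18.2 ± 5.75 in d24 livers and 6.45 ± 3.23 in wt livers. Mdm2 averaged 107 ± 17.4 in d24 spleens and 42.6 ± 6.3 in wt spleens, and 49.4 ± 5.09 in d24 livers and 32.3 ± 2.72 in wt livers. These 3 passed in spleen and not in liver, and none of their interactions passed (adjusted p = 0.485, 0.541 and 0.559), so they are not shown to differ between organs.

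Among 15 apoptosis targets, 3 rose in d24 spleen and 1 in d24 liver, with medians of 0.18 and 0.07. Eda2r, a death-domain receptor for ectodysplasin A2, is the one called in both organs: 34.4, 75.1 and 35.9 in d24 spleens, against 1.05, 0.535 and 1.13 in wt spleens, and 8.41, 10.3 and 7.02 in d24 livers, against 3.41, 0 and 0 in wt livers. Aen, an exonuclease, averaged 70.9 ± 19.7 in d24 spleens and 24.2 ± 3.43 in wt spleens (SD, n = 3 each), a rise that passed (adjusted p = 0.00963, limma). Bax stood 1.00 higher in spleen and 0.92 higher in liver without passing in either (adjusted p = 0.241 and 0.295), and Bbc3, the BH3-only gene Puma, did not pass either. Of 19 repair and metabolism targets, 2 rose in spleen and none was called in liver. The part of irradiation in these differences cannot be told apart from that of genotype. In the paired-end wt libraries, X-rays raised Cdkn1a, Ccng1, Phlda3, Zmat3, Bax, Aen, Bbc3 and Eda2r in spleen by 2.22 to 4.87 on the log2 scale, and all of these but Bbc3 in liver by 0.56 to 3.58.

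**Figure D2:**
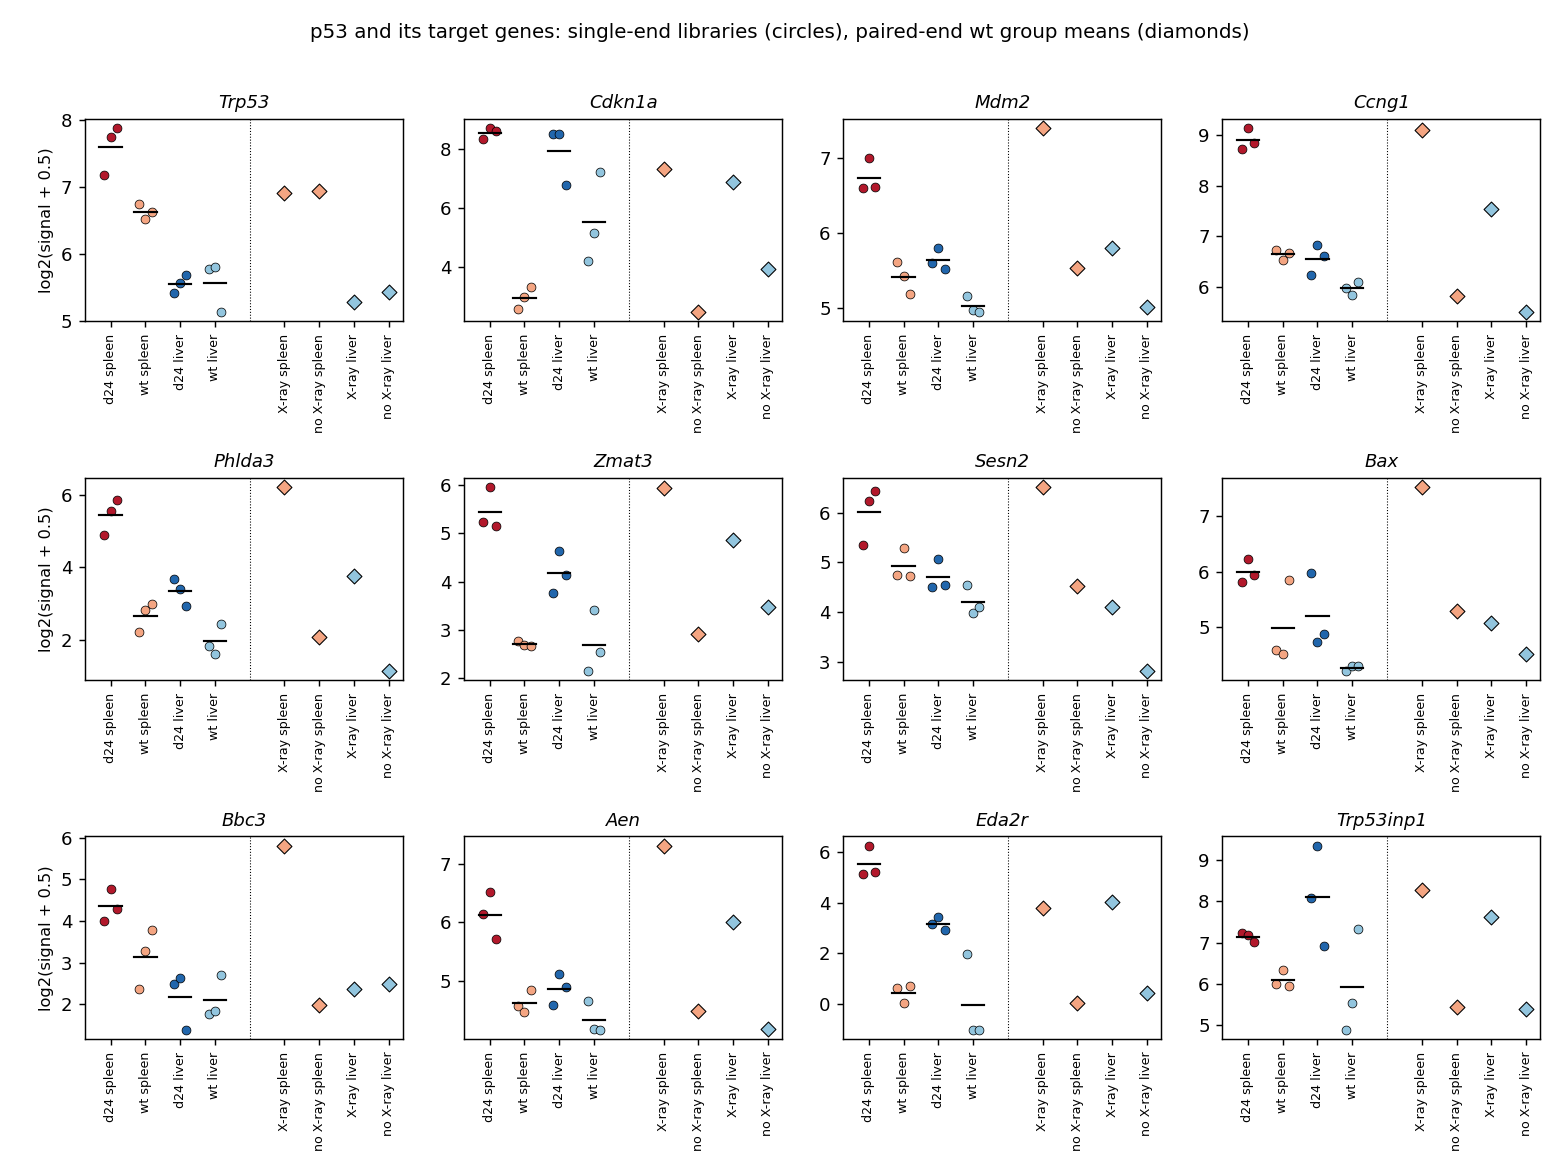
Log2(signal + 0.5) of Trp53 and 11 of its target genes: circles are the 3 single-end libraries of each group with their mean as a line, and diamonds are the means of the paired-end wt groups with and without X-rays, from a table normalised separately. In the Cdkn1a panel the wt spleen circles sit near the untreated diamond, the d24 spleen circles lie above all others of their organ, and 1 wt liver library lies above the other 2.

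More broadly, X-rays raised 2477 of the 14262 genes tested in both tables in paired-end wt spleen (17.4%). Among the genes higher in d24 spleen they had raised 64 of 131 (48.9%), among those lower in d24 spleen 55 of 169 (32.5%), and among the genes with an interaction above 0, 11 of 22 (50%). In paired-end wt liver X-rays raised 218 genes (1.53%), among them 11 of 83 genes higher in d24 liver (13.3%) and 3 of the 22.

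The 2 largest spleen-bound interactions were in mast cell genes. Tpsb2, a tryptase of mast cell granules, had 207, 45.2 and 46.6 in d24 spleens, against 0.766, 1.64 and 0.167 in wt spleens. It had 0.498, 2.08 and 0.0702 in d24 livers, against 2.89, 0.166 and 0.603 in wt livers. The spleen groups were far apart and the liver groups overlapped, and the interaction was 6.23 ± 1.08 (SE; adjusted p = 0.0241, limma). Mcpt4, a chymase of connective tissue mast cells, had 248, 30.5 and 121 in d24 spleens, against 2.07, 3.9 and 0.418 in wt spleens, and at most 0.579 in any liver (interaction 5.82, adjusted p = 0.029). Fcer1a, the alpha chain of the IgE receptor, had 10.9, 6.6 and 6.51 in d24 spleens, against 0.383, 0.0315 and 0.0837 in wt spleens (interaction 3.81, adjusted p = 0.0241). Mrgprb1, a mast cell receptor gene of the Mas family, had 14.2, 3.97 and 3.43 in d24 spleens and 0 in each wt spleen, at least 57.5-fold higher against a floor of 3 reads per library.

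Of the 9 mast cell and basophil markers tested, 4 rose and 2 fell in d24 spleen, none was called in liver, and 3 had a called interaction, all above 0. The list medians were 2.95 in spleen, -0.14 in liver and 2.48 for the interaction. The 2 that fell, Mcpt8 and Prss34, are proteases of basophils: Mcpt8 was at 0 in all 3 d24 spleens, against 7.02, 12.6 and 9.2 in wt spleens, and Prss34 averaged 0.023 ± 0.0399 in d24 spleens and 9.43 ± 3.8 in wt spleens (SD, n = 3 each). Cma1, another mast cell chymase, rose by 4.23 in spleen (adjusted p = 0.00345) with an interaction of 3.90 that did not pass (adjusted p = 0.129). d24 spleen 1 held the highest summed signal of the list, 666, against 127 and 274 in the other d24 spleens and 35.8 to 58.2 in wt spleens. Without wt spleen 3 the list again had 4 rises and 2 falls in spleen, and the interaction called none of it. By edgeR 2 rose and 1 fell in spleen, with no called interaction. DESeq2 called 5 higher and 2 lower in spleen, with 1 interaction above 0 and 1 below. In refits without 1 library the interaction call was lost in 4 of 12 for Tpsb2, 8 of 12 for Mcpt4, 6 of 9 for Fcer1a and 9 of 9 for Mrgprb1.

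Other spleen-bound rises were of genes with varied roles. Zfp750, a transcription factor of epidermal differentiation, had 19.1, 28.6 and 36.7 in d24 spleens, against 0.0319, 0.189 and 0 in wt spleens, while d24 livers had 29, 16.9 and 26.3, against 20.9, 21.4 and 29.5 in wt livers. Its interaction of 5.62 ± 0.54 (SE; adjusted p = 0.000403, limma) had the smallest p of all genes. Zfp750 was also raised by X-rays in paired-end wt spleen, at 2.39 ± 0.319 after X-rays and 0.0397 ± 0.0345 without (SD, n = 3 each).
Cda, cytidine deaminase, had 16.3, 34.2 and 35.4 in d24 spleens, against 1.28, 0.472 and 0.544 in wt spleens, and stood lower in d24 livers (13.3, 8.01 and 8.22) than in wt livers (21.3, 20.7 and 17.9) without passing there. Gmpr, GMP reductase of purine salvage, had 145, 274 and 157 in d24 spleens, against 12.9, 12.3 and 10.2 in wt spleens (interaction 4.60, adjusted p = 0.00361). Ccl24, eotaxin-2, which attracts eosinophils, had 34.2, 29.4 and 38.5 in d24 spleens, against 1.72, 1.29 and 2.01 in wt spleens (interaction 4.50, adjusted p = 0.00361). In none of these 4 genes did the spleen groups overlap, which the rule that named them required.
Avpr1a, a vasopressin receptor, had 8.11, 16.9 and 11 in d24 spleens, against 0.893, 1.73 and 0.46 in wt spleens, with an interaction of 3.95. Smoc2, a secreted matrix protein, had 377, 373 and 506 in d24 spleens, against 68.9, 92.3 and 72.2 in wt spleens, with an interaction of 3.03. The matrix proteins Tnn (4.48) and Col26a1 (3.09), the GDNF receptor Gfra1 (2.31), the junction protein Pkp4 (1.98), and C2cd4a (3.61), Serinc2 (3.48) and Tmem176a (1.57) make up the rest of the named rises, each with its log2 interaction in brackets.

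The spleen-bound falls were led by megakaryocyte genes. Itgb3, the beta 3 integrin of the platelet fibrinogen receptor, had 9.91, 9.63 and 8.91 in d24 spleens, against 134, 111 and 70.4 in wt spleens. In liver it pointed the other way, at 41.4, 173 and 41.9 in d24 livers, against 16.3, 24.2 and 25.1 in wt livers, though the liver difference did not pass (1.62, adjusted p = 0.104). The spleen groups did not overlap, which the naming rule required, and the interaction was -4.97 ± 0.63 (SE; adjusted p = 0.00332, limma).
Pf4, platelet factor 4, had 5.33, 4.56 and 3.01 in d24 spleens, against 84.4, 62.4 and 238 in wt spleens, with 14.2, 11.9 and 9.76 in d24 livers, against 8.93, 15.6 and 13.6 in wt livers. Its interaction was -4.46 ± 0.62 (SE; adjusted p = 0.00563, limma).
Of the 15 megakaryocyte and platelet genes tested, 13 fell in d24 spleen and none rose, while in d24 liver 1 fell, Ppbp, and 1 rose, Vwf. The medians were -3.47 in spleen, -1.10 in liver and -2.22 for the interaction, which called 4 of the 15, all below 0. The summed signal was 73.5 to 84.5 in d24 spleens, against 695 to 1240 in wt spleens, with no overlap, and 123 to 501 in d24 livers, against 85.2 to 174 in wt livers, where the groups overlapped. Without wt spleen 3, which had the highest sum, 9 of the 15 fell in spleen, and by edgeR 6 fell. DESeq2 called 11 of the 15 lower in spleen, and 6 lower and 2 higher in liver, with 6 called in the same direction in both organs. In the paired-end wt spleens Pf4 averaged 26.6 ± 3.92 after X-rays and 17.5 ± 3.66 without (SD, n = 3 each), between the d24 and wt spleens of the single-end table.

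Vwf, von Willebrand factor, which endothelium and megakaryocytes make, was not called in spleen (-0.88) and rose in liver: 41.2, 253 and 74 in d24 livers, against 6.11, 10.4 and 5.55 in wt livers, with an interaction of -4.48. The 13 endothelial markers had no call in either organ, with medians of 0.42 in spleen and 0.52 in liver, and their summed signal was 1160 to 2420 in d24 livers, against 800 to 1080 in wt livers. The part of endothelial RNA in the Vwf value was not tested. The coagulation factor genes F10 and F5, which hepatocytes express, fell in spleen: F10 had 0.695, 1.35 and 0.0381 in d24 spleens, against 11.3, 8.87 and 27.4 in wt spleens, beside 1600, 1660 and 1240 in d24 livers, against 1130, 1160 and 866 in wt livers (interaction -4.29, adjusted p = 0.00563). F5 had 5.56, 2.97 and 2.17 in d24 spleens, against 41.1, 33.2 and 16 in wt spleens (interaction -3.51, adjusted p = 0.041). Its call was lost in 9 of 12 refits without 1 library. In paired-end wt spleens F5 averaged 8.11 ± 2.02 after X-rays and 4.99 ± 1.18 without (SD, n = 3 each), nearer the d24 spleens. Gch1, which makes the cofactor tetrahydrobiopterin, had 16.5, 19.4 and 16.4 in d24 spleens, against 76.1, 68.7 and 88.4 in wt spleens, and 110, 102 and 91.9 in d24 livers, against 88, 119 and 122 in wt livers (interaction -2.02, adjusted p = 0.0142). Chdh, choline dehydrogenase (-3.41), Gca, the calcium-binding protein grancalcin (-3.29), Gjb2, connexin 26 (-2.87), and Cavin2, a caveolar coat protein (-1.57), complete the named falls with their log2 interactions.

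**Figure D3:**
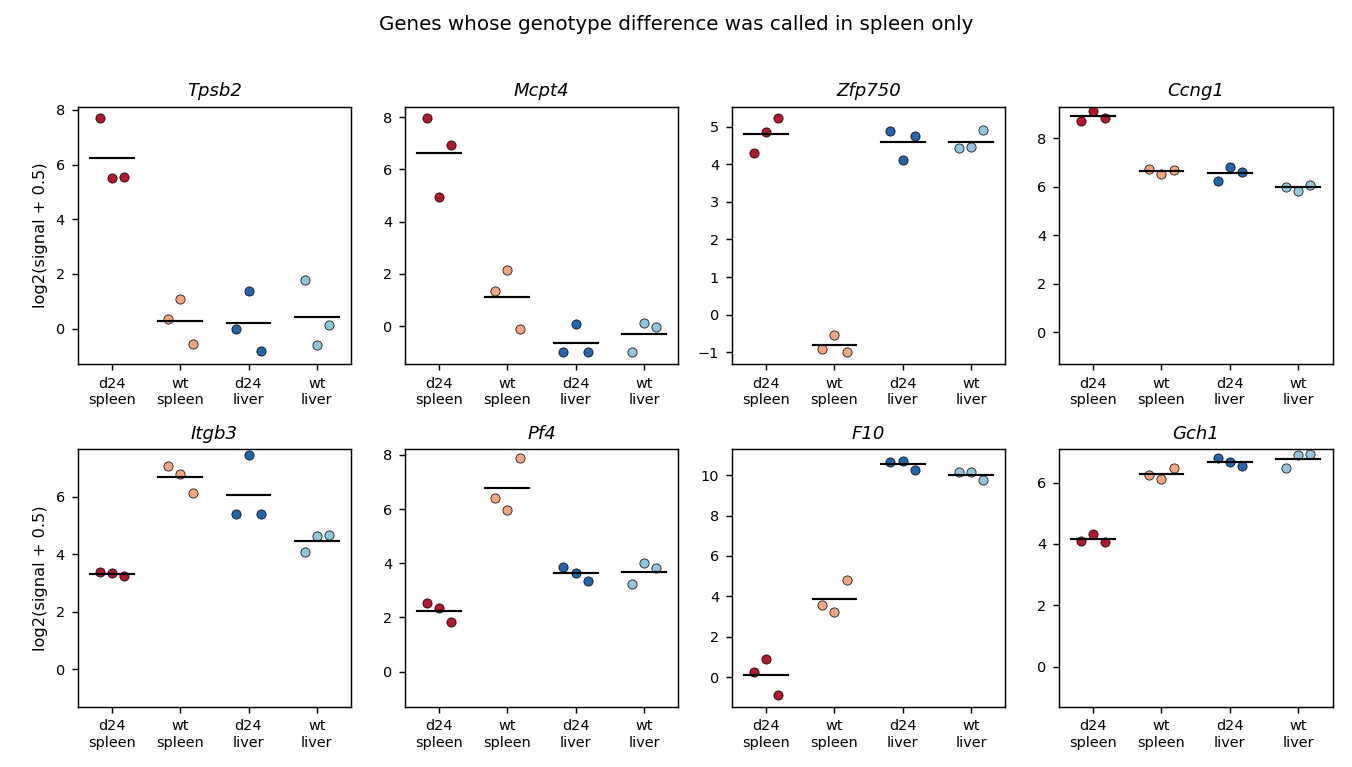
Log2(signal + 0.5) in each of the 12 libraries for 8 spleen-bound genes, with group means as lines. d24 and wt spleens do not overlap in any panel, which was also so for 18.5% of all genes tested. Tpsb2, Mcpt4, Zfp750 and Ccng1 are higher in d24 spleens and Itgb3, Pf4, F10 and Gch1 lower. Zfp750 in d24 spleens is at the level of both liver groups.

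Liver-bound differences were mostly rises: 19 of the 21 genes were higher in d24 liver. Hamp, hepcidin, the hormone that lowers iron export from cells, had 1200, 422 and 506 in d24 livers, against 5.38, 0.166 and 1.51 in wt livers, and 0 in all 6 spleens. The liver groups were apart by 8.32 ± 0.65 on the log2 scale (SE; adjusted p = 2.49e-05, limma), and the interaction of -8.32 was the most negative of all. With 0 in every spleen, that interaction only restates the liver difference, and the constant spleen values lower the pooled error. No genotype difference of Hamp could be measured in spleen. Hamp2, its neighbour copy, had 44.1, 6.65 and 40.3 in d24 livers, against 0.131, 0.331 and 0.965 in wt livers, and 0 in all spleens, so the same limit holds for it. Reads of these 2 copies could have been shared between them in the authors' counting. In the paired-end wt livers Hamp varied widely, at 45.1 ± 52.1 after X-rays and 34.1 ± 58 without (SD, n = 3 each). Hamp2 also varied widely there, at 105 ± 130 and 71.3 ± 114. Both Hamp2 means were above every d24 liver of the single-end table.

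Cyp17a1, a steroid hydroxylase, had 122, 286 and 12.6 in d24 livers, against 0, 0.248 and 2.53 in wt livers (interaction -6.43, adjusted p = 0.0452). Nnmt, nicotinamide N-methyltransferase, had 197, 305 and 29.4 in d24 livers, against 0, 1.99 and 2.77 in wt livers (interaction -6.38, adjusted p = 0.0397). Elfn1, a synaptic adhesion protein in neurons, had 58.9, 63.4 and 45.8 in d24 livers, against 0, 0.248 and 0.422 in wt livers (interaction -5.26, adjusted p = 0.0241). In all 3 genes the liver groups did not overlap, which the naming rule required, and d24 liver 3 was the lowest d24 liver. The paired-end wt livers were unlike the single-end ones here: Cyp17a1 averaged 143 ± 91.5 after X-rays and 83.9 ± 14.1 without, and Nnmt 80.8 ± 25.6 and 63.3 ± 1.68 (SD, n = 3 each), which is nearer the d24 livers than the single-end wt livers. Elfn1 was at 0.0825 ± 0.0133 and 0.174 ± 0.0846 there, near the single-end wt livers. In paired-end wt spleens Cyp17a1 averaged 0.109 after X-rays and 0.0292 without, and Elfn1 0.146 and 0.208, all near 0. Where single-end spleens were as low, these 2 interactions mostly restate the liver difference.
Acmsd, a decarboxylase of tryptophan breakdown, had 52.8, 60 and 33.8 in d24 livers, against 3.35, 4.97 and 7.9 in wt livers, and 17.4, 26 and 29.9 in d24 spleens, against 26.6, 23.6 and 19.1 in wt spleens. In paired-end wt livers Acmsd averaged 49.4 ± 10.8 after X-rays and 28.9 ± 7.32 without. Vldlr, a lipoprotein receptor, had 108, 162 and 142 in d24 livers, against 12.9, 9.69 and 10 in wt livers, and stood 1.09 higher in spleen without passing (adjusted p = 0.127). Il17rb, an interleukin-25 receptor chain, had 225, 124 and 140 in d24 livers, against 26.5, 29.3 and 32.3 in wt livers. Etnppl, a phospholyase, and Apoa4, an apolipoprotein of intestine and fasting liver, had interactions of -2.88 and -4.19, and Apoa4 ranged from 249 to 2190 in d24 livers, against 28 to 71.1 in wt livers.
The remaining named rises were in Hapln1, a matrix link protein (-4.95), Bmp8b, a BMP family ligand (-5.11), Dcaf17 (-3.09), Aldh1b1, a mitochondrial aldehyde dehydrogenase (-2.19), and Cd36, a fatty acid transporter (-1.93), given as log2 interactions. Hapln1, Etnppl and Apoa4 averaged at most 0.152 in paired-end wt spleens, with or without X-rays. Their interactions too may mostly restate the liver difference.

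The 2 liver-bound falls were Hmgcs1 and Tlcd2. Hmgcs1, the synthase at the head of cholesterol synthesis, had 72.1, 109 and 42 in d24 livers, against 353, 580 and 271 in wt livers. It had 37.6, 28.5 and 42.1 in d24 spleens, against 33, 29.8 and 24.9 in wt spleens. Only the liver groups were apart, and the interaction was 2.75 ± 0.48 (SE; adjusted p = 0.0258, limma). The call was lost in 8 of 12 refits without 1 library. In paired-end wt spleens Hmgcs1 rose with X-rays (0.93, adjusted p = 0.00923, limma). In paired-end wt livers it stood lower after X-rays without passing (-0.79, adjusted p = 0.0798, limma). Those livers averaged 1530 ± 446 after X-rays and 2650 ± 836 without (SD, n = 3 each), above the single-end ones. The part of irradiation was not tested. The Hmgcs1 promoter window (GRCm38.p6 chr13:119690101-119690400, plus strand) is shown because it holds a match in capitals to TCACNCCAC, the form of a sterol regulatory element. This form was searched on both strands and is in 1.24% of all windows.
Hmgcs1: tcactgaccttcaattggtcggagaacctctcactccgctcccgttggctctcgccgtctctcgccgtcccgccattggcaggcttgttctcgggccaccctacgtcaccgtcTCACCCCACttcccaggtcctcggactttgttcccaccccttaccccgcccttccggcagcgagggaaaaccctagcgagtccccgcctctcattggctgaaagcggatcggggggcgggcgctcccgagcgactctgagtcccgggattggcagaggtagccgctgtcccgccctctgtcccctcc

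Of 24 cholesterol synthesis genes tested, 5 fell in d24 liver (Hmgcs1, Idi1, Fdps, Fdft1 and Msmo1) and 1 rose in d24 spleen, with medians of -0.98 in liver, 0.23 in spleen and 0.98 for the interaction, which called 2. The summed signal was 1340 to 1860 in d24 livers, against 2010 to 4070 in wt livers, and 443 to 560 in d24 spleens, against 352 to 443 in wt spleens. wt liver 3 had the lowest sum of the wt livers, and without wt liver 3 and wt spleen 3 together 5 of the list had a called interaction. Without wt spleen 2, wt spleen 3 or wt liver 2 alone, and by edgeR, the interaction called none of the list. With Xist as a covariate it called 1, and DESeq2 called 5, all above 0. Without wt liver 2, 1 of the 24 fell in liver. Tlcd2, a membrane protein gene, had 25.6, 14.9 and 38.1 in d24 livers, against 81.4, 83.8 and 78.7 in wt livers (interaction 2.53).

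The interaction called none of the glucose and glucocorticoid genes. Of 19 gluconeogenesis and glycolysis genes, 4 rose in d24 liver and none was called in spleen, with medians of 1.13 and 0.07 and an interaction median of -1.13. The 4 are Tat, which also degrades tyrosine, Igfbp1, Pfkl and Eno1. Of 12 glucocorticoid response genes, 3 rose in d24 liver, Tat and the metallothioneins Mt1 and Mt2, with medians of 1.86 in liver and 0.93 in spleen. Mt2 had 1450, 3630 and 362 in d24 livers, against 18.8, 37.8 and 4.82 in wt livers, with an interaction of -4.63 (adjusted p = 0.138). Cps1, the entry enzyme of the urea cycle, rose by 2.21 in liver (interaction -2.22, adjusted p = 0.0783). Without wt liver 2 none of the 19 glucose genes was called in liver. Without d24 liver 3, 8 of the glucose genes and 6 of the glucocorticoid genes rose in liver, and the interaction called 2 in each list.

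**Figure D4:**
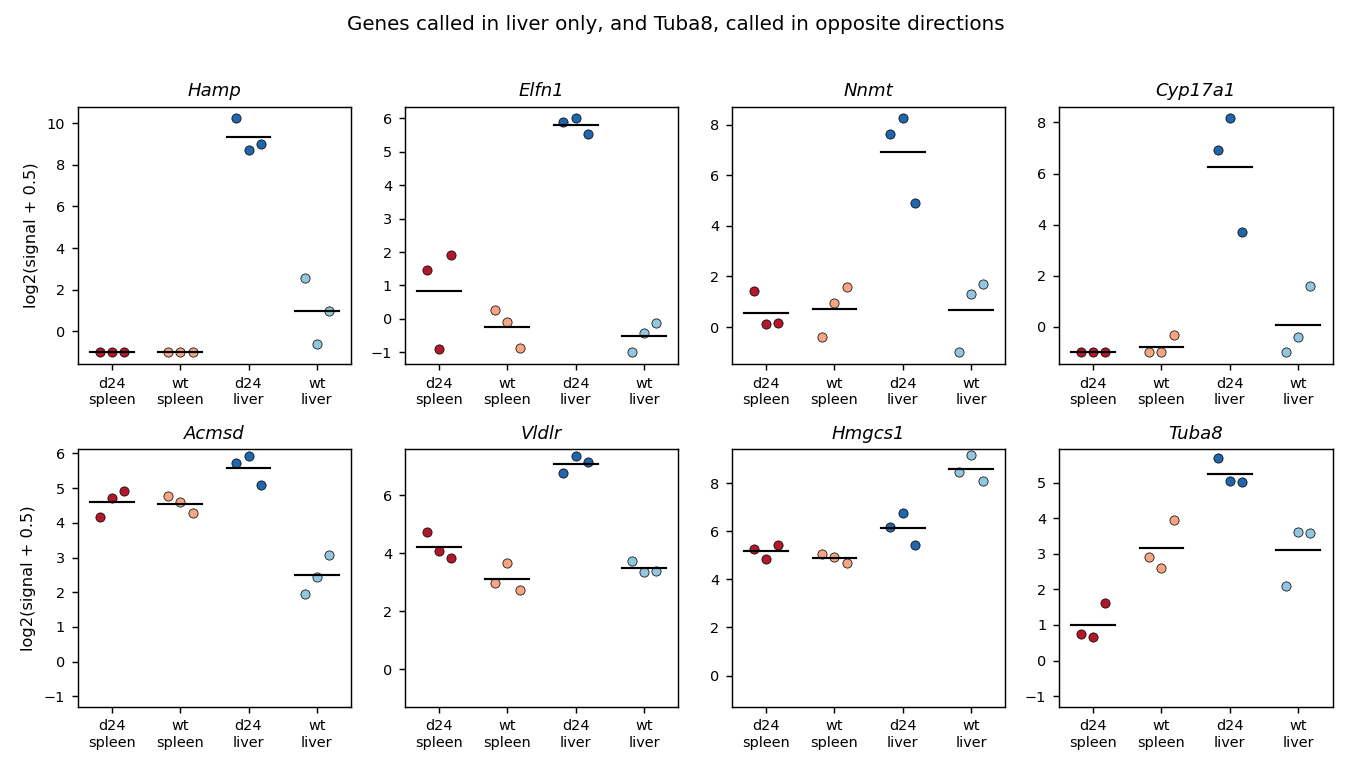
Log2(signal + 0.5) in each of the 12 libraries for 7 liver-bound genes and Tuba8, with group means as lines. d24 livers lie above wt livers for Hamp, Elfn1, Nnmt, Cyp17a1, Acmsd, Vldlr and Tuba8 and below them for Hmgcs1, while the spleen groups overlap except for Vldlr, higher in d24 spleens, and Tuba8, lower in d24 spleens.

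Tuba8, an alpha tubulin, was the single gene called in opposite directions. It had 1.19, 1.07 and 2.59 in d24 spleens, against 7.05, 5.57 and 14.8 in wt spleens, and 50.8, 32.4 and 31.7 in d24 livers, against 3.81, 11.8 and 11.6 in wt livers. The differences were -2.14 and 2.14, near the threshold in both organs (adjusted p = 0.036 and 0.049, limma), and no gene had opposite calls in 9 of the 12 refits without 1 library. Among the genes called by the interaction alone, Ppm1e, a phosphatase, had 30.1, 27.6 and 33.4 in d24 spleens, against 10.8, 10.3 and 4.56 in wt spleens, and 0, 0.641 and 0 in d24 livers, against 2.23, 2.15 and 0.844 in wt livers. Tnfrsf13c, the BAFF receptor of B cells (3.36), and Bdh1, a ketone body dehydrogenase (3.14), also leaned upward in spleen and downward in liver. Pde3b, a phosphodiesterase (-2.39), and Zbtb18, a transcriptional repressor (-2.51), leaned the other way.

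Of the 39 shared genes, 33 were lower and 6 higher in d24 organs. Mpo, myeloperoxidase of primary granules, had 1.07, 0.311 and 0 in d24 spleens, against 191, 204 and 320 in wt spleens. It had 0, 0.561 and 0 in d24 livers, against 11.6, 11.4 and 22.7 in wt livers. It was the shared gene with a called interaction, at -8.08 in spleen and -4.54 in liver (interaction -3.54 ± 0.72 SE, adjusted p = 0.0477, limma). With d24 values this near 0 in both organs, each fall is bounded by the wt level and depends on the constant added before the logarithm. The Mpo interaction therefore does not show a different response of the organs. Its call was lost in 9 of 12 refits without 1 library. Elane, neutrophil elastase, had 1.51, 1.07 and 0 in d24 spleens, against 50, 57 and 173 in wt spleens, and was at 0 in all d24 livers, at least 17.6-fold lower than in wt livers against a floor of 3 reads per library.

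Of 11 primary granule genes tested, 9 fell in d24 spleen and 3 in d24 liver, with medians of -4.84 and -1.38 and an interaction median of -2.47. The summed signal was 43.4 to 86 in d24 spleens, against 460, 511 and 1300 in wt spleens, and 26.1 to 86.8 in d24 livers, against 64 to 157 in wt livers. Prtn3, proteinase 3, came close to a called interaction at -4.28 (adjusted p = 0.0566). Of 15 secondary and tertiary granule genes, 5 fell in spleen and 6 in liver, 4 in both, with medians of -3.07 and -2.87. The shared 4 are Camp, Ngp, S100a8 and S100a9, antimicrobial and calprotectin genes of neutrophils. Camp had 31.5, 12.9 and 5.94 in d24 spleens, against 183, 220 and 931 in wt spleens, and 0.0623, 3.12 and 0.351 in d24 livers, against 42.9, 51.7 and 50.5 in wt livers. The groups did not overlap in either organ, and the interaction of 0.76 ± 1.00 (SE) was small beside its error.

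Eosinophil granule genes fell too: 6 of 8 in spleen and 5 in liver, all 5 shared, with medians of -4.44 and -3.55. Prg2, major basic protein, had 75.3, 16.8 and 37.5 in d24 spleens, against 809, 810 and 1650 in wt spleens, and 1.81, 15.9 and 5.41 in d24 livers, against 101, 209 and 196 in wt livers. Its differences of -4.80 and -4.73 gave an interaction of -0.07 ± 0.87 (SE). Epx, eosinophil peroxidase, Prg3, and the ribonucleases Ear1 and Ear6, which are near-identical copies, are the others. The eosinophil surface genes Siglecf and Ccr3 were not called in either organ, at -0.80 and 0.19 in spleen and -1.64 and 1.10 in liver. wt spleen 3 had the highest of the 3 wt spleen sums in all these granule lists. Without it, 7 of the primary granule, 2 of the neutrophil and 6 of the eosinophil genes fell in spleen, and without wt liver 2 the liver falls numbered 2 in each list. edgeR called 4, 1 and 5 of these genes lower in spleen and 3, 2 and 3 lower in liver.

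Some B cell precursor genes fell. Of 11 early B cell genes, 5 fell in spleen and 4 in liver, 3 of them shared: Dntt, the terminal transferase, Vpreb3, a gene of pre-B cells, and Igll1, of the surrogate light chain. Vpreb3 had 2.2, 0.622 and 3.05 in d24 spleens, against 10.2, 12.4 and 16.2 in wt spleens, and 0, 0.16 and 0 in d24 livers, against 3.41, 6.87 and 6.39 in wt livers. Without wt spleen 3, 1 of the early B cell genes fell in spleen, and by edgeR none did. Of 18 B cell genes, 1 fell in spleen and 8 in liver, with medians of -1.60 and -2.34. Without wt liver 2, 2 of the 18 fell in liver, and DESeq2 called 12 lower in liver and 3 interactions above 0. The summed B cell signal was 32.2 to 37.7 in d24 livers, against 159 to 291 in wt livers, while d24 spleens ran from 524 to 3070 around the 1420 to 2450 of wt spleens. The limma interaction called none of the list, so the organs are not shown to differ. Pou2af1, a B cell coactivator, stood at 3.35 (adjusted p = 0.0971).
Ppbp, a platelet chemokine, had 8.25, 9.5 and 14.7 in d24 spleens, against 276, 214 and 502 in wt spleens, and 2.12, 0.721 and 0 in d24 livers, against 11.2, 16.8 and 23.2 in wt livers. Siglech, a marker of plasmacytoid dendritic cells, Ly6c2 of monocytes, and Coro1a, a leukocyte actin regulator, fell in both organs too. The other named shared falls were Gapt, P2rx1, Alox15, Stfa3, Stfa2l1, Cstdc5, Atp2a3, Clec5a, F13a1, Atp8b4, Fcnb and Cd79b, with interactions between -1.20 (Fcnb) and 1.12 (Gapt), none called. Stfa3, Stfa2l1 and Cstdc5 are near-identical stefin copies whose reads may have been split. Fbxo5 and Hmgb2, genes of dividing cells, fell by 1.40 and 1.13 averaged over both organs, while the 32 S phase and 31 G2/M genes had no call in either organ.
For Mpo, Prg2, Camp and Ppbp, the single-end wt libraries stood above the paired-end wt libraries, in tables normalised apart. Mpo averaged 29.5 ± 12 in paired-end wt spleens after X-rays and 17.4 ± 6.78 without, and 0.728 ± 0.0782 and 0.859 ± 0.117 in the livers (SD, n = 3 each). Single-end Mpo averaged 0.461 ± 0.551 in d24 spleens and 238 ± 70.8 in wt spleens, and 0.187 ± 0.324 in d24 livers and 15.2 ± 6.49 in wt livers. The paired-end wt livers were thus closer to the d24 livers.
Prg2 averaged 63.8 ± 39.9 in paired-end wt spleens after X-rays and 40.3 ± 27.2 without, and 1.38 ± 0.455 and 1.01 ± 0.574 in the livers. Its single-end means were 43.2 ± 29.6 in d24 spleens and 1090 ± 483 in wt spleens, and 7.72 ± 7.35 in d24 livers and 169 ± 58.6 in wt livers. The paired-end wt values of Prg2 were near d24 in spleen and below d24 in liver.
Camp averaged 68.8 ± 29.3 and 30.3 ± 5.63 in the paired-end wt spleens with and without X-rays, and Ppbp 77.8 ± 1.46 and 58.8 ± 9.31, each between the d24 and wt spleens of the single-end table. In the paired-end wt livers Camp averaged 1.47 ± 0.797 and 1.15 ± 0.476, and Ppbp 1.78 ± 0.219 and 1.33 ± 0.123. These liver means lay within the range of the d24 livers and below the single-end wt livers. The part of what sets the single-end wt libraries apart in the shared falls was not tested.

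Besides Eda2r, the shared rises were Rgs4, a brake on G-protein signals, Sparcl1, a matrix protein, Acer2, an alkaline ceramidase that p53 induces in human cells, Plod1, a collagen lysyl hydroxylase, and 1 gene without a symbol. Sparcl1 had 291, 264 and 287 in d24 spleens, against 57.3, 80.7 and 32.1 in wt spleens, and 74.7, 88.1 and 93.3 in d24 livers, against 29.5, 18.8 and 13.2 in wt livers. Rgs4 had 22.4, 59 and 21.3 in d24 spleens, against 1.28, 3.08 and 2.3 in wt spleens, and 43.7, 71.1 and 41.2 in d24 livers, against 6.76, 8.11 and 18.7 in wt livers. Neither gene's groups overlapped in either organ. Their interactions of 0.29 ± 0.46 and 1.31 ± 0.67 (SE) did not pass, which does not show that the organs responded alike.

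**Figure D5:**
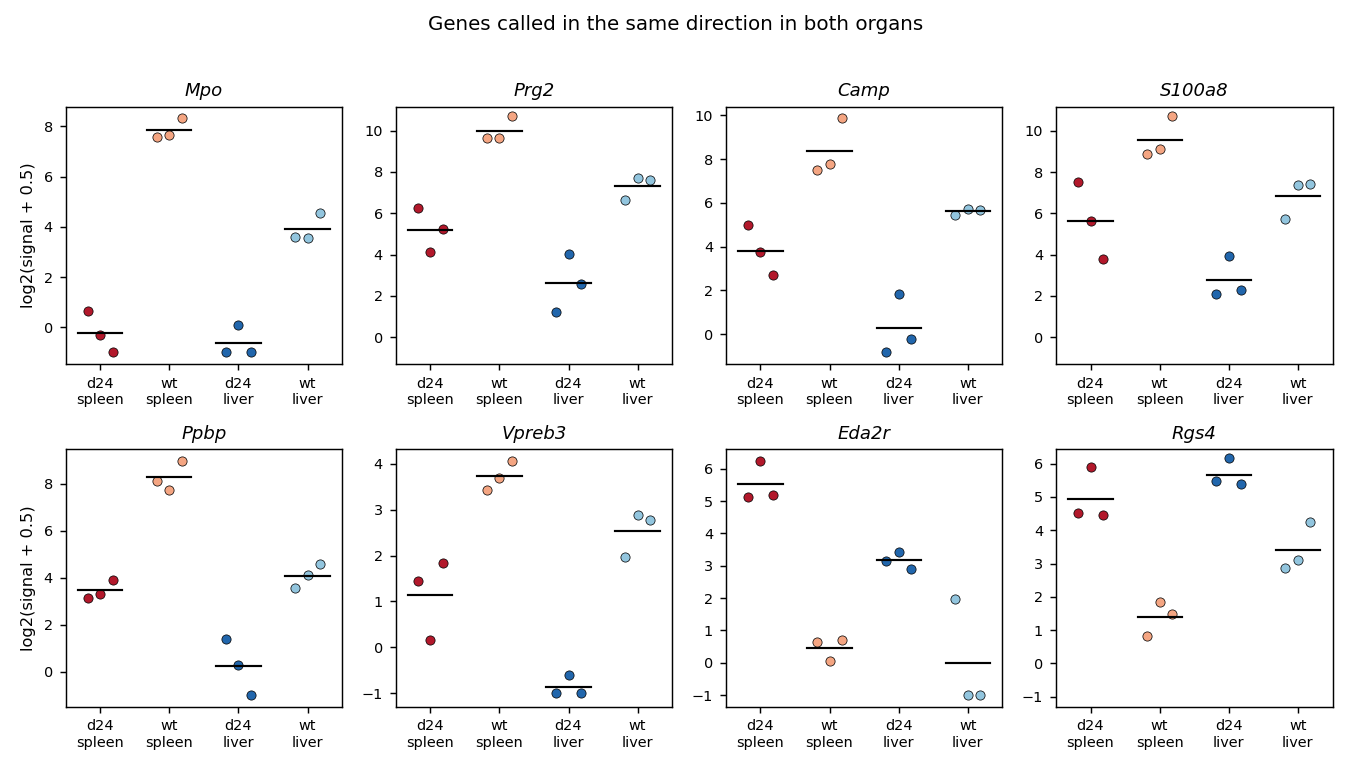
Log2(signal + 0.5) in each of the 12 libraries for 8 shared genes, with group means as lines. Mpo, Prg2, Camp, S100a8, Ppbp and Vpreb3 are lower in d24 than in wt in both organs and Eda2r and Rgs4 higher, with no overlap within an organ. Such separation in both organs, in the same direction, held for 3.91% of all genes tested.

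Some interferon-stimulated and histone genes were called in spleen and none in liver, without a called interaction. Of 26 interferon-stimulated genes, 6 fell in d24 spleen and none was called in liver, with medians of -1.49 and -0.80. Their summed signal was 393 to 748 in d24 spleens, against 1080, 1130 and 3070 in wt spleens, the highest again in wt spleen 3, without which 1 fell. With Xist as a covariate none of the 26 was called in either organ. Of 10 linker and replication histone genes, 5 fell in d24 spleen and none was called in liver, with medians of -1.62 and -0.03. Without wt spleen 3, 1 of the histone genes fell.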

How the data were processed

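Pieces of mouse organs were kept in RNAlater and their RNA was made into total RNA libraries with a stranded kit, per the labels' protocols. Both deposited tables hold signal, that is reads per gene divided by a library size the authors scaled for composition. edgeR and the build mm10 are named in the submitters' processing notes, and no source used here gives the aligner, counter, annotation or filters. Of the single-end values, 100% were whole multiples of the value of 1 read (tolerance 0.01 of a step), so whole reads could be recovered. In the paired-end table, 18 of 36 columns match no sample here and were not used.

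A gene was tested if its signal reached 1 in 3 or more of the 12 libraries, which kept 15077 of 17697. limma 3.58.1 in R 4.3.3, with a mean-variance trend, was fitted to log2(signal + 0.5) with 4 group means, and called genes at a Benjamini-Hochberg adjusted p under 0.05 over all tested genes. Fold changes on this scale understate the change of low genes. edgeR 4.0.16 (quasi-likelihood) and DESeq2 1.42.0 on the recovered reads were alternatives. The paired-end table was fitted apart in the same way and is set beside the rest as context, since the 2 tables were normalised separately. Symbols and promoters came from RefSeq (GRCm38.p6), and 97.1% of identifiers matched. Where libraries of 1 group are not separate animals, the p-values measure the spread between these samples, which may be technical. Replicate numbers were checked by the correlation of spleen and liver deviations from the group means. It was 0.233, 0.15 and 0.345 for wt, whose numbers also matched in Xist, so these numbers go together. It was -0.046, 0.054 and 0.048 for d24, whose number 1 differed in Xist between organs, so the d24 numbers do not pair and no block was used in the fit reported.

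The members and the 46 gene lists were chosen with earlier results of these data known. The rule for named genes took a panel of 12 genes, the largest effects of each class with a mean signal of at least 5, and up to 4 members of each list by interaction p. It also took the highest and lowest called interactions where d24 and wt values did not overlap in the organ of larger effect. Beyond it, the remaining interaction and shared calls and the list members that were called were named after their values were seen, and predicted genes, small RNAs and receptor segments were counted without a name. A few other genes are counted but not reported here by name. Thymus libraries entered 1 alternative fit only.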

Additional observations from a re-analysis of the deposited data

Results flagged for a closer look

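The difference between d24 and wt libraries was called as not the same in spleen and liver for the 54 named genes below. The call is by the interaction term of limma itself (adjusted p under 0.05 over all genes tested). Each gene is given with its log2 interaction, spleen difference minus liver difference. The call was lost for 43 of them in at least 1 refit without 1 library, and edgeR kept 16 of all 62 calls. Hamp and Hamp2 were at 0 in all spleens, so their interactions restate the liver difference. Cyp17a1, Elfn1, Etnppl, Apoa4 and Hapln1 averaged at most 0.208 in paired-end wt spleens, with or without X-rays. Where single-end spleens were as low, the interactions of these genes too mostly restate the liver difference.

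Higher in d24 spleen with no call in liver were Tpsb2 (6.23), Mcpt4 (5.82), Zfp750 (5.62), Cda (5.52), Gmpr (4.60), Ccl24 (4.50), Tnn (4.48), Avpr1a (3.95), Mrgprb1 (3.92), Fcer1a (3.81), Zfp365 (3.66), C2cd4a (3.61), Serinc2 (3.48), Col26a1 (3.09), Smoc2 (3.03), Gfra1 (2.31), Pkp4 (1.98), Ccng1 (1.67) and Tmem176a (1.57). Lower in d24 spleen with no call in liver were Cavin2 (-1.57), Gch1 (-2.02), Gjb2 (-2.87), Gca (-3.29), Chdh (-3.41), F5 (-3.51), F10 (-4.29), Pf4 (-4.46) and Itgb3 (-4.97).

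Higher in d24 liver with no call in spleen were Cd36 (-1.93), Aldh1b1 (-2.19), Vldlr (-2.50), Btg2 (-2.53), Etnppl (-2.88), Acmsd (-3.04), Dcaf17 (-3.09), Il17rb (-3.60), Apoa4 (-4.19), Vwf (-4.48), Hamp2 (-4.68), Hapln1 (-4.95), Bmp8b (-5.11), Elfn1 (-5.26), Nnmt (-6.38), Cyp17a1 (-6.43) and Hamp (-8.32). Lower there were Hmgcs1 (2.75) and Tlcd2 (2.53). Tuba8 (-4.28) was called in opposite directions and Mpo (-3.54) lower in both organs. Called by the interaction alone were Ppm1e (3.55), Tnfrsf13c (3.36), Bdh1 (3.14), Pde3b (-2.39) and Zbtb18 (-2.51).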

How the results depend on the processing

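Counts of calls moved more than directions did: the 62 interaction genes kept their sign under every alternative that tested them, except 1 by edgeR. The alternatives reuse the libraries in which the 62 were called, so their kept signs are no independent check. The interaction, called for 62 genes, gave 24 with a pseudocount of 0.1, 100 with 2, 19 by edgeR, 208 by DESeq2, 31 with Xist as a covariate, 0 in the 7 libraries with high Xist (538 at an unadjusted p under 0.05, limma) and 30 without wt liver 3 and wt spleen 3. The last 2 settings were chosen after seeing the data. With the replicate number as a block of 3 it gave 27, and with a block of genotype and number 100. The latter block is not a valid pairing for d24, whose numbers do not pair between organs. The 344 spleen calls became 141 by edgeR, 605 by DESeq2, 175 with Xist, 0 in the 7 libraries and 146 without both wt 3 libraries. The 213 liver calls became 101, 476, 0 and 109 by edgeR, DESeq2, the 7 libraries and without both wt 3 libraries, and 72 with liver fitted alone. The average over both organs, 550 calls, gave 328, 949, 255, 0 and 251 by edgeR, DESeq2, Xist, the 7 libraries and without both wt 3 libraries.

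Spleen-bound genes, 34, numbered 18, 62, 14, 112, 16, 18, 0 and 14 with pseudocounts of 0.1 and 2, edgeR, DESeq2, the replicate block of 3, Xist, the 7 libraries and without both wt 3 libraries. In the same order liver-bound genes, 21, numbered 5, 33, 3, 72, 11, 10, 0 and 13. Shared genes, 39, numbered 13, 82, 0 and 13 by edgeR, DESeq2, the 7 libraries and without both wt 3 libraries. Genes called in opposite directions, 1, numbered 0 with a pseudocount of 2, no filter, no trend, the replicate block of 3, Xist, the 7 libraries and without both wt 3 libraries, 2 with quantile normalization and all 18 libraries, and 9 by DESeq2. The cause of these shifts was not tested.

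Leaving out 1 library gave 12 to 91 interaction calls, 171 to 364 in spleen, 48 to 447 in liver, 292 to 693 for the average, 9 to 32 spleen-bound, 2 to 52 liver-bound, 0 to 3 opposite and 12 to 45 shared. The lowest came without wt liver 1 for the interaction and spleen-bound genes, wt spleen 3 for spleen, wt spleen 2 for liver-bound genes and wt liver 2 for liver, average and shared genes. Interaction calls numbered 15 to 24 without any 1 of d24 spleen 2, d24 spleen 3, the 3 wt spleens, d24 liver 1 and wt liver 2, and 31 without d24 liver 2. Among uncalled genes, the Bax interaction turned to -0.17 by edgeR, -0.23 by DESeq2 and -0.16 to 0.51 without 1 library (-0.04, -0.12, -0.16, -0.15 and -0.08 where below 0), and that of Sesn2 to -0.12 in the 7 libraries. With 3 libraries a group, differences within the spread between them were not detectable.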
